A study of Homo sapiens with 27 samples.

Results

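The Integrator complex was followed here through 10 of its subunit genes: INTS1, INTS2, INTS3, INTS4, INTS5, INTS6, INTS7, INTS8, INTS9 and CPSF3L, the older symbol of INTS11. They were chosen by gene symbol, not by any measured value, and are 10 of the 20268 genes counted. All 10 are listed in each of the 4 count tables, for 3′ UTRs, introns, coding sequence (CDS) and the 10 kb downstream of the gene. The 27 libraries came from 3 established human prostate cancer cell lines. LNCaP is hormone-sensitive, LNCaP95 is an androgen-independent derivative of it, and 22Rv1 is hormone-insensitive. Each line carried a lentiviral control shRNA (CTRL sh) or a knockdown shRNA targeting CPSF1, either CPSF1 sh1 or CPSF1 sh2, with 3 biological replicates per line and shRNA, and all cells, controls included, had been selected with puromycin. LNCaP and 22Rv1 were grown with phenol red and LNCaP95 without it, so line and medium cannot be told apart. RNA was sequenced by PAC-seq (Poly(A)-ClickSeq), which reads the ends of transcripts next to their poly(A) tails, so a read marks where an RNA was cleaved and polyadenylated.

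Integrator is a large complex that travels with RNA polymerase II. It cleaves the nascent small nuclear RNAs of the spliceosome at their 3′ ends, and it also cuts short nascent transcripts of protein-coding genes near paused polymerase while its bound phosphatase PP2A removes phosphates from the polymerase and its elongation factors. CPSF3L is the endonuclease and pairs with INTS9 and INTS4 in a cleavage module, a set of proteins related to the mRNA cleavage factors CPSF3 (CPSF73), CPSF2 (CPSF100) and symplekin. The complex's own subunits are made from ordinary mRNAs, whose 3′ ends are cut by the cleavage and polyadenylation specificity factor, of which CPSF1 is the largest subunit.

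The sequences at the annotated 3′ ends of the subunit genes are shown because the hexamer AATAAA and its relatives are what that factor binds. The 40 bases before the canonical transcript end (GENCODE, GRCh37) were searched on the gene's own strand for AATAAA, then for ATTAAA and 8 weaker variants, which are AGTAAA or TATAAA or CATAAA or GATAAA or ACTAAA or AATATA or AATACA or AATAGA. These hexamers can overlap one another, and the order of the search was as listed. Each run below is 30 bases, 5′ to 3′ on the gene's strand, with the hexamer in capitals.

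INTS6, chr13:51935711-51935740, minus strand: catggAATAAAttccttattgaaggtaact

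INTS7, chr1:212113742-212113771, minus strand: ttttaAATAAAtatctgtttctttgcttgt

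INTS4, chr11:77589763-77589792, minus strand: tccacAATAAAgttgagaaaacaccaagct

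INTS5, chr11:62414323-62414352, minus strand: ttctaAATAAAatttgccaacttgagaaaa

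INTS3, chr1:153747258-153747287, plus strand: tcccaATTAAAaccaggatggagagcattt

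CPSF3L, chr1:1246975-1247004, minus strand: tttccAGTAAAagctgaacaaaagactact

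INTS2, chr17:59942733-59942762, minus strand: tggttTATAAAcattcatattctttatcaa

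INTS1, chr7:1509913-1509942, minus strand: ctggttttgaatgaaacgacctgaactgtc

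AATAAA stood before the ends of INTS4, INTS5, INTS6, INTS7 and INTS9, which is 5 of the 10 subunits against 62.1% of 19856 genes. INTS3 had ATTAAA, found without AATAAA in 13.9% of genes. CPSF3L and INTS2 had neither and carried the variants AGTAAA and TATAAA, and 9.85% of genes had a variant without either main hexamer. For INTS1 and INTS8 none of these letters stood in the window. In 8 of the 10 genes this end lay within 3 bases of the outer end of the 3′ UTR as it stood before the tables' extension by 300 bases. The exceptions were INTS6 and INTS3. The canonical INTS6 end lay 3622 bases past the 3′ UTR before its extension, inside the stretch counted as INTS6 intron, and the 10 kb region of INTS6 (chr13:51917914-51927913) began 7800 bases past that end. The canonical INTS3 end lay 729 bases past its 3′ UTR before the extension, in no counted region.

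The libraries held 1725670 to 6549383 reads in 3′ UTRs, 936970 to 3580071 in introns, 603941 to 1889628 in CDS and 170330 to 728430 in the 10 kb regions, so the downstream values are the least precise. CPSF1 itself fell in its 3′ UTR in all 3 lines, by 1.19 on the log2 scale in LNCaP (adjusted p = 8.3e-05), 1.05 in LNCaP95 (3.0e-04) and 0.73 in 22Rv1 (0.0164), with no overlap between control and knockdown libraries. The 10 kb regions took 4.88% of reads in LNCaP controls and 6.28% after knockdown, 3.62% and 6.01% in LNCaP95, and 4.66% and 5.87% in 22Rv1. Changes in that table are given relative to its own total, on which the median of all genes was 0.13, 0.22 and 0.19 (log2), with 64.7%, 63.4% and 72.6% of calls higher. Scaled to the summed reads of all 4 tables the median was 0.62, 1.11 and 0.73 and 94.3%, 95.6% and 97.9% of calls were higher. All 9 luminal prostate markers were detected in every line. Their summed level was 4863 to 4954 CPM in LNCaP controls against 3521 to 3670 after knockdown, 6778 to 7149 against 4196 to 4962 in LNCaP95, and 2784 to 3058 against 2740 to 3081 in 22Rv1. The 3 neuroendocrine markers summed to 43.8 to 46.8 against 12.04 to 20.1 CPM in LNCaP, 46.1 to 66.4 against 15.6 to 26.5 in LNCaP95 and 99.7 to 122 against 91.4 to 131 in 22Rv1. Single genes weighed heavily in these sums. Over all LNCaP libraries ENO2 ran from 6.65 to 38.5 CPM, SYP from 4.43 to 8.44, and CHGA reached 0.28. Among the luminal markers KLK3 had the widest range, 200 to 1037 CPM in LNCaP and 656 to 2715 in LNCaP95. The 4 fibroblast markers summed to at most 72.4 CPM, the 3 basal markers to at most 4.93 and the 3 immune markers to at most 2.51. KRT5, COL1A2 and DCN were at 0 in at least 1 library of every line, and CHGA in LNCaP and LNCaP95. The part of these marker shifts in the results below was not tested, and in bulk RNA a smaller share of one kind of cell and less RNA per cell cannot be told apart.

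In 3′ UTRs, INTS6 fell after CPSF1 knockdown in LNCaP and LNCaP95, INTS3 fell in LNCaP, and in LNCaP95 INTS7 and INTS8 rose while CPSF3L and INTS1 fell. Values are counts per 1e6 counts of the table (CPM), scaled by TMM, and a call is an edgeR quasi-likelihood adjusted p under 0.05 over all genes tested, with 3 control against 6 knockdown libraries. These p-values measure the spread between these libraries. In LNCaP, 0 of 10 subunits rose against 8.24% of all genes, and 2 fell, INTS3 and INTS6, against 10.1%. In LNCaP95, 2 rose, INTS7 and INTS8, against 15.2% of all genes, and 3 fell, INTS6, CPSF3L and INTS1, against 15.2%. In 22Rv1 none was called in edgeR or in DESeq2, against 0.678% of all genes higher and 0.791% lower, and only INTS8 had an unadjusted p under 0.05. The median log2 change of the 10 was 0.03, 0.11 and 0.21 in LNCaP, LNCaP95 and 22Rv1, beside 0.02, 0.01 and -0.01 over all genes.

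**Figure D1:**
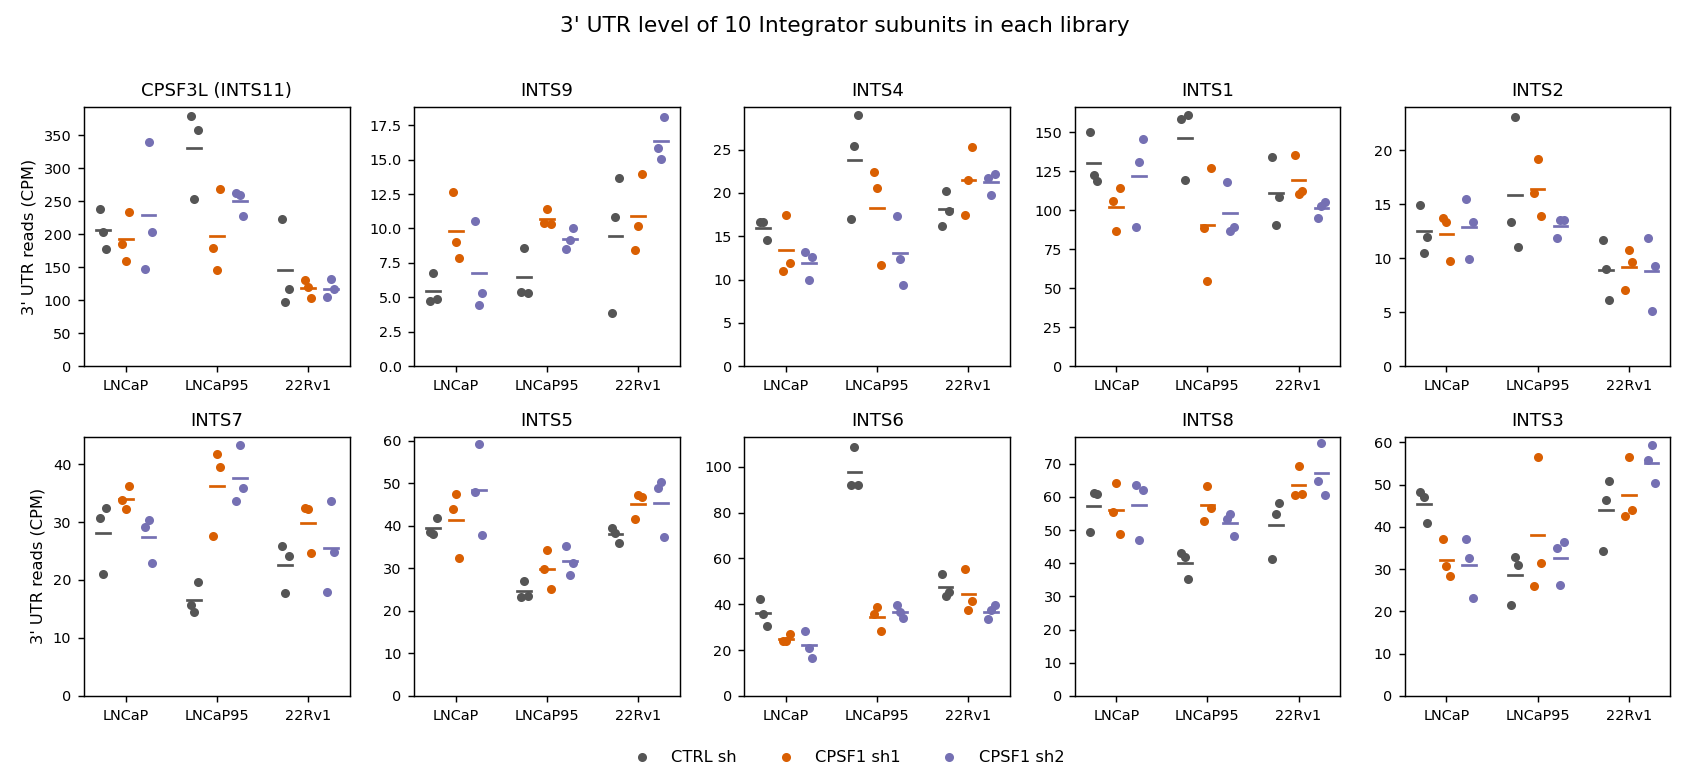
3′ UTR level (CPM, linear axis from 0) of each Integrator subunit in every library, by line and shRNA, with CTRL sh in grey, CPSF1 sh1 in orange and CPSF1 sh2 in purple. Each dot is 1 library and each line is the mean of 3, with a panel for each subunit. In LNCaP95, INTS6 stands at 92.1 to 109 CPM in controls and 28.2 to 39.7 after knockdown, and INTS7 at 14.5 to 19.7 and 27.6 to 43.3.

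In the 10 kb downstream regions, INTS6 rose in all 3 lines and INTS4 in LNCaP95 and 22Rv1. INTS1 fell in LNCaP95 and 22Rv1, though not when scaled to the summed reads, and INTS7 rose in 22Rv1 from 0 reads. Of the 7 subunits with enough reads to test in LNCaP, 1 rose and none fell, against 9.52% of all genes higher and 5.2% lower. In LNCaP95, 2 of 8 rose and 1 fell, against 17.6% and 10.1%. In 22Rv1, 3 of 9 rose and 1 fell, against 7.26% and 2.73%, and 1 of the 3 was INTS7, which passed the filter on low values only through its knockdown libraries. The median log2 change of the subunits tested was 0.27, -0.02 and 0.77 (0.68 with INTS7 at its bound), beside 0.13, 0.22 and 0.19 over all genes. INTS2 was not tested in any line, INTS5 in neither LNCaP nor LNCaP95, and INTS3 not in LNCaP, since their mean was 2 CPM or lower.

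**Figure D2:**
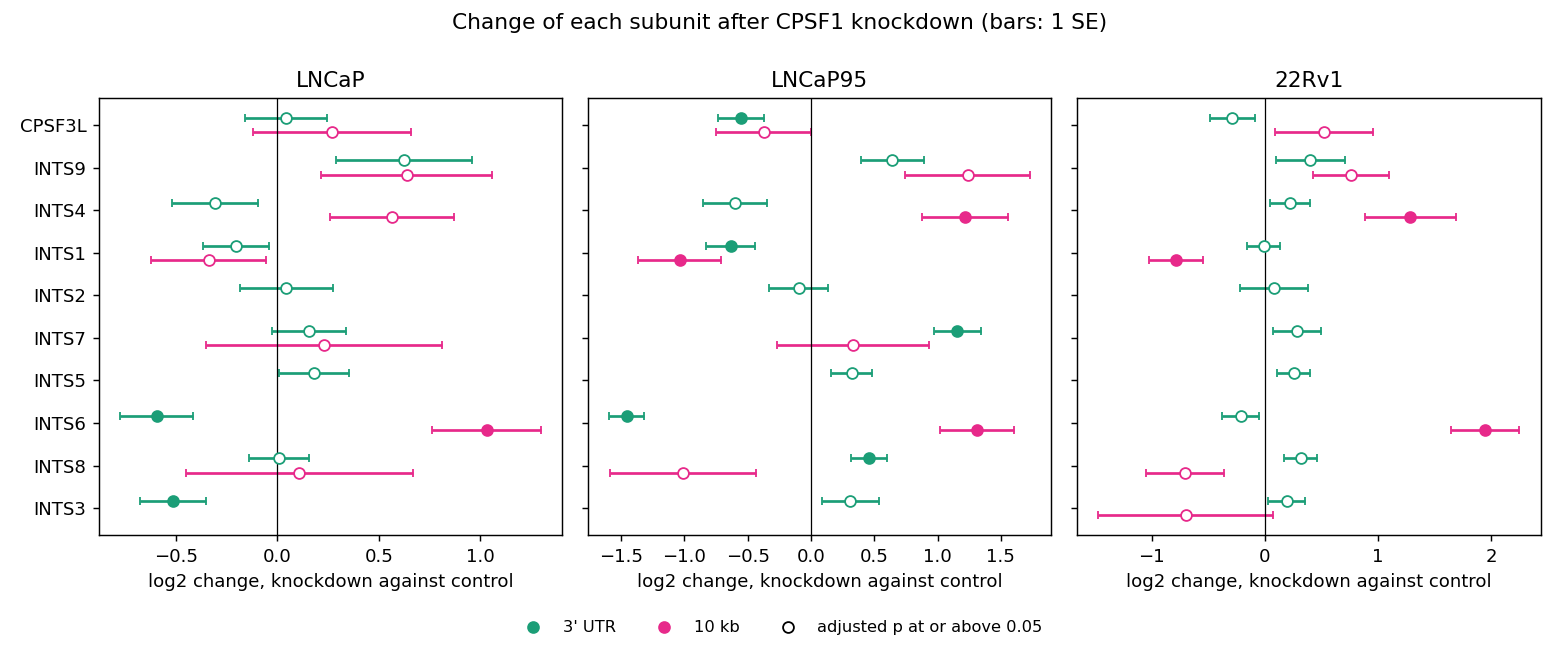
Log2 change after CPSF1 knockdown (6 knockdown against 3 control libraries) of each subunit in 3′ UTRs (green) and in the 10 kb regions (pink), one panel per line. The x axes differ between panels. Bars are 1 SE, filled points had an adjusted p under 0.05, and points with an SE above 1 are left out. INTS6 lies below 0 in 3′ UTRs and above 0 downstream in every line, though its 3′ UTR change in 22Rv1 (-0.21) was not called.

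CPSF3L, the catalytic endonuclease, fell in its 3′ UTR in LNCaP95 and was not called in LNCaP or 22Rv1. Its level there was 379, 254 and 358 CPM in the 3 control libraries, and 145 at the lowest, 244 at the median and 269 at the highest after knockdown. The groups overlapped, with 3 of 6 knockdown libraries below every control. The log2 change was -0.56 (SE 0.18, adjusted p = 0.0266), and the call was lost without control replicate 1 (-0.45, adjusted p = 0.151) or control replicate 3 (adjusted p = 0.110). In LNCaP it read 238, 204 and 177 CPM in controls and 147 to 339 after knockdown, a change of 0.04 (95% interval -0.35 to 0.44). In 22Rv1, control replicate 1 stood at 223 CPM and the other controls at 97.5 and 117, with knockdown libraries from 103 to 132 (-0.29, adjusted p = 0.567). The difference of the change between lines was not called for any pair. Over all 4 tables CPSF3L fell by 0.61 in LNCaP95 (adjusted p = 0.0078; 0.0740 without control replicate 1). Downstream, its 10 kb region, which also holds ACAP3 on the same strand, gave no call in any line.

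INTS9, the inactive partner of the endonuclease, had few reads in its 3′ UTR. In LNCaP95 it read 5.40, 8.61 and 5.33 CPM in controls and 8.49, 10.2 and 11.4 at the lowest, median and highest after knockdown. The library with 8.61 CPM kept the groups overlapping, and the change was 0.64 (SE 0.25, adjusted p = 0.0587). The values were 4.77, 6.80 and 4.85 CPM against 4.42 to 12.6 in LNCaP (0.63, adjusted p = 0.213), and 3.88, 10.9 and 13.7 against 8.47 to 18.1 in 22Rv1 (0.40, adjusted p = 0.609). Most INTS9 reads were intronic, 70.6% to 77.5% of its reads in controls as the mean of each line. Downstream, in a region with no same-strand neighbour, it read 24.5, 11.3 and 15.4 CPM in LNCaP95 controls and 30.5 to 69.2 after knockdown, with no overlap (1.24, SE 0.50, adjusted p = 0.0513). The changes in LNCaP (0.64, adjusted p = 0.351) and 22Rv1 (0.77, adjusted p = 0.137) were also above 0 and not called.

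INTS4, the scaffold of the cleavage module, rose downstream of its gene and was not called in its 3′ UTR. In the 10 kb region (chr11:77579467-77589466, minus strand) it read 30.7, 78.9 and 43.3 CPM in LNCaP95 controls and 103, 113 and 158 at the lowest, median and highest after knockdown. No knockdown library overlapped the controls, and the change was 1.22 (SE 0.34, adjusted p = 0.0038; 0.96 and 0.0507 without control replicate 1). In 22Rv1 the controls read 26.1, 35.4 and 16.5 CPM, from 5 to 9 reads each, and the knockdown libraries 43.2, 63.9 and 87.7, again with no overlap. The change was 1.28 (SE 0.40, adjusted p = 0.0241), and the call was lost without control replicate 3 (0.96, adjusted p = 0.238), sh2 replicate 2 (0.0610) or sh2 replicate 3 (0.0526). In LNCaP the values were 74.8, 99.5 and 53.4 CPM against 75.7 to 145 (0.56, SE 0.31, adjusted p = 0.227). This region overlaps longer INTS4 transcript models of a newer annotation and, on the same strand, 2 lncRNAs and the pseudogene RPL21P95, so its reads cannot be given to one transcript. The INTS4 3′ UTR read 16.9, 25.4 and 28.9 CPM in LNCaP95 controls and 9.41 to 22.4 after knockdown (-0.60, SE 0.25, adjusted p = 0.0780). In LNCaP its change was -0.31 (adjusted p = 0.341) and in 22Rv1 0.22 (0.634).

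INTS1, the largest subunit and part of the complex's backbone, fell in LNCaP95 in both regions, downstream only relative to the total of the 10 kb regions. Its 3′ UTR read 158, 119 and 161 CPM in controls and 54.9, 89.0 and 127 at the lowest, median and highest after knockdown. Of the 6 knockdown libraries, 5 lay below every control, and the change was -0.63 (SE 0.19, adjusted p = 0.0188; 0.0878 without control replicate 1 and 0.0888 without control replicate 3). The changes in LNCaP (-0.21, adjusted p = 0.410) and 22Rv1 (-0.01, adjusted p = 0.986) were not called. Over all 4 tables it fell by 0.65 in LNCaP95 (adjusted p = 0.0062; 0.0550 without control replicate 1). The 10 kb region, which holds a lncRNA on the same strand, read 205, 150 and 40.2 CPM in LNCaP95 controls and 25.7 to 99.2 after knockdown. These groups overlapped through control replicate 3, and the change was -1.04 (SE 0.33, adjusted p = 0.0112; -0.52 and 0.352 without control replicate 1, 0.0594 without control replicate 2). In 22Rv1 the region read 193, 169 and 173 CPM in controls and 78.2, 109 and 133 after knockdown, with no overlap. That change was -0.78 (SE 0.24, adjusted p = 0.0194; 0.0518 without control replicate 2, 0.0635 without control replicate 3 and 0.0643 without sh2 replicate 1). Scaled to the summed reads, neither downstream fall was called (-0.15, adjusted p = 0.797 in LNCaP95 and -0.28, adjusted p = 0.485 in 22Rv1). The mean share of INTS1 reads that lay downstream was 4.95% in LNCaP95 controls and 7.30% after knockdown, and 11.6% and 10.2% in 22Rv1.

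INTS2, which belongs to the same backbone, was not called in 3′ UTRs or introns of any line. In CDS and downstream it had too few reads to be tested in any line. Its 3′ UTR read 14.9, 10.5 and 12.004 CPM in LNCaP controls, 13.4, 23.1 and 11.1 in LNCaP95 controls and 11.6, 9.05 and 6.10 in 22Rv1 controls. After knockdown the range was 9.72 to 15.4, 11.9 to 19.2 and 5.15 to 11.9, so each pair of groups overlapped. The 95% intervals of the change were -0.40 to 0.49, -0.56 to 0.36 and -0.51 to 0.67. Downstream it had 0 reads in all 9 control libraries and at most 5 after knockdown, a difference not detectable at this depth.

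INTS7, another backbone subunit, rose in LNCaP95. Its 3′ UTR read 15.6, 14.5 and 19.7 CPM in controls, and after knockdown 27.6, 41.7 and 39.5 with CPSF1 sh1 and 33.6, 43.3 and 35.9 with CPSF1 sh2. The lowest knockdown library stood above the highest control, and the level was 2.23-fold higher (log2 1.16, SE 0.18, adjusted p = 1.3e-04). Each shRNA alone gave the call, with 1.14 (adjusted p = 0.0045) for sh1 and 1.19 (1.8e-04) for sh2. In LNCaP the controls read 30.7, 21.0 and 32.4 CPM and the knockdown libraries 23.0 to 36.2 (0.16, adjusted p = 0.603), and in 22Rv1 25.9, 17.8 and 24.2 against 18.0 to 33.6 (0.29, adjusted p = 0.606). The change in LNCaP95 differed from that in LNCaP by 1.01 (adjusted p = 0.0161; 0.0654 without LNCaP control replicate 3 and 0.0613 without LNCaP95 control replicate 2). It differed from that in 22Rv1 by 0.86 (adjusted p = 0.0451), a difference lost in 13 of 30 alternative settings. The intron counts of INTS7 rose with it in LNCaP95, from 66.8 to 82.6 CPM in controls to 85.8 to 119 after knockdown (0.51, SE 0.16, adjusted p = 0.0209; 0.101 without control replicate 1 and 0.0997 without control replicate 3). All INTS7 reads together rose from 26.9 to 29.5 CPM to 41.0 to 49.3 (0.69, adjusted p = 2.8e-04).

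The 10 kb region of INTS7, which has no same-strand neighbour, held 0 reads in the 3 control libraries of 22Rv1. After knockdown it held 6 at the lowest, 9.5 at the median and 26 at the highest, with all 6 libraries above the controls. Against a floor of 3 reads per control library, taken as a bound, this is 1.60-fold higher, a comparison that was not tested. In control replicate 1 a count of 3 reads amounts to 15.7 CPM, above the knockdown median of 14.1 CPM. The call (adjusted p = 0.0016) came from the fit with the controls at 0 reads and gives no p-value for the 1.60-fold bound. In LNCaP95 the same region read 6.13 to 18.8 CPM in controls and 17.4 to 20.5 after knockdown, and in LNCaP 16.0 to 26.2 and 6.88 to 41.4, with no call in either line.

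INTS6, which binds PP2A in the phosphatase module, had the largest 3′ UTR fall of the 10 in LNCaP and in LNCaP95. Its 3′ UTR counts leave out its canonical end, which lies in the stretch counted as INTS6 intron. In LNCaP95 the 3′ UTR read 92.1, 109 and 92.1 CPM in controls, then 35.9, 38.9 and 28.2 with CPSF1 sh1 and 39.7, 36.4 and 33.9 with CPSF1 sh2. Every knockdown library stood below every control, and the level after knockdown was 0.364 of the control level (log2 -1.46, SE 0.14, adjusted p = 6.0e-07). Each shRNA alone gave the call, with -1.49 (adjusted p = 1.9e-04) and -1.41 (2.6e-06). In LNCaP the controls read 42.3, 35.7 and 30.4 CPM and the knockdown libraries 16.7, 23.8 and 28.4 at the lowest, median and highest, with no overlap. That change was -0.60 (SE 0.18, adjusted p = 0.0261; -0.48 and 0.161 without control replicate 1, 0.0775 without control replicate 2). In 22Rv1 the controls read 53.1, 43.5 and 45.4 CPM and the knockdown libraries 33.4, 38.5 and 55.5. These groups overlapped through sh1 replicate 1, and the change was -0.21 (95% interval -0.54 to 0.11, adjusted p = 0.616).

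The INTS6 3′ UTR change differed between lines. It was lower in LNCaP95 than in LNCaP by 0.85 on the log2 scale (SE 0.23, adjusted p = 0.0134; -0.74 and 0.0629 without LNCaP control replicate 3) and higher in 22Rv1 than in LNCaP95 by 1.26 (SE 0.22, adjusted p = 2.9e-04). Over the 10 subunits, 2 of 10 differed between LNCaP95 and LNCaP against 9.58% of all genes, and 2 of 10 between 22Rv1 and LNCaP95 against 10.7%, INTS6 and INTS7 in both cases. None differed between 22Rv1 and LNCaP in edgeR or DESeq2, against 5.11%, and INTS3 alone had an unadjusted p under 0.05 there.

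Counts in INTS6 introns and coding sequence also fell in LNCaP95, but these are not independent of the 3′ UTR. Of the 2802 bases of its CDS, 2233 overlap its 3′ UTR features, so a read may count in both. The intron stretch holds the canonical INTS6 end. Intron counts were 291 to 314 CPM in controls and 122, 162 and 188 at the lowest, median and highest after knockdown (-0.90, SE 0.15, adjusted p = 3.5e-05). CDS counts were 96.5 to 136 CPM in controls and 30.9 to 80.3 after knockdown (-0.92, SE 0.23, adjusted p = 0.0096; -0.81 and 0.0664 without control replicate 2). Neither pair of groups overlapped. Over all 10 subunits, introns gave 2 calls of 9 tested in LNCaP95 (INTS6 and INTS7) against 23.8% of all genes, 0 of 9 in LNCaP against 14.3%, and 0 of 9 in 22Rv1 against 4.37%. In both of the latter lines 2 subunits had an unadjusted p under 0.05 (INTS3 and INTS6 in LNCaP, INTS6 and INTS7 in 22Rv1), and DESeq2 gave 0 calls too. CDS gave 1 lower call of 2 tested in LNCaP95, INTS6, against 4.99% of all genes, 0 of 5 in LNCaP against 7.1% in either direction, and 0 of 4 in 22Rv1 against 1.01%. DESeq2 likewise gave 0 CDS calls in those 2 lines, and at an unadjusted p under 0.05 there were 1 (INTS6) and 0.

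Downstream of INTS6 the counts rose in every line. In LNCaP the 10 kb region read 89.8, 103 and 103 CPM in controls, then 281, 241 and 175 with CPSF1 sh1 and 221, 94.2 and 211 with CPSF1 sh2. All knockdown libraries except sh2 replicate 2 exceeded the controls, and the change was 1.03 (SE 0.27, adjusted p = 0.0027; with sh2 alone 0.77 and 0.0838). In LNCaP95 it read 52.1, 109 and 117 CPM in controls and 216, 232 and 272 at the lowest, median and highest after knockdown, with no overlap (1.31, SE 0.29, adjusted p = 2.4e-04). In 22Rv1 it read 26.1, 59.0 and 43.96 CPM in controls and 104, 190 and 215 after knockdown, again with no overlap (1.95, SE 0.30, adjusted p = 2.0e-07). The rise in 22Rv1 held with each shRNA alone, 1.84 (adjusted p = 2.2e-05) and 2.17 (1.9e-09), as did that in LNCaP95, 1.35 (0.0022) and 1.30 (2.6e-04). The 10 kb change of INTS6 was not shown to differ between lines (adjusted p = 0.766, 0.334 and 0.441). Over the 8 subunits tested for this, 0 differed between LNCaP95 and LNCaP against 2.48% of all genes, 0 between 22Rv1 and LNCaP against 1%, and 1 (INTS7, from the controls at 0 reads) between 22Rv1 and LNCaP95 against 4.15%. The counts of 0 were the same in DESeq2, and at an unadjusted p under 0.05 they were 0 and 2. A microRNA gene, MIR5693, lies on the same strand within this region.

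**Figure D3:**
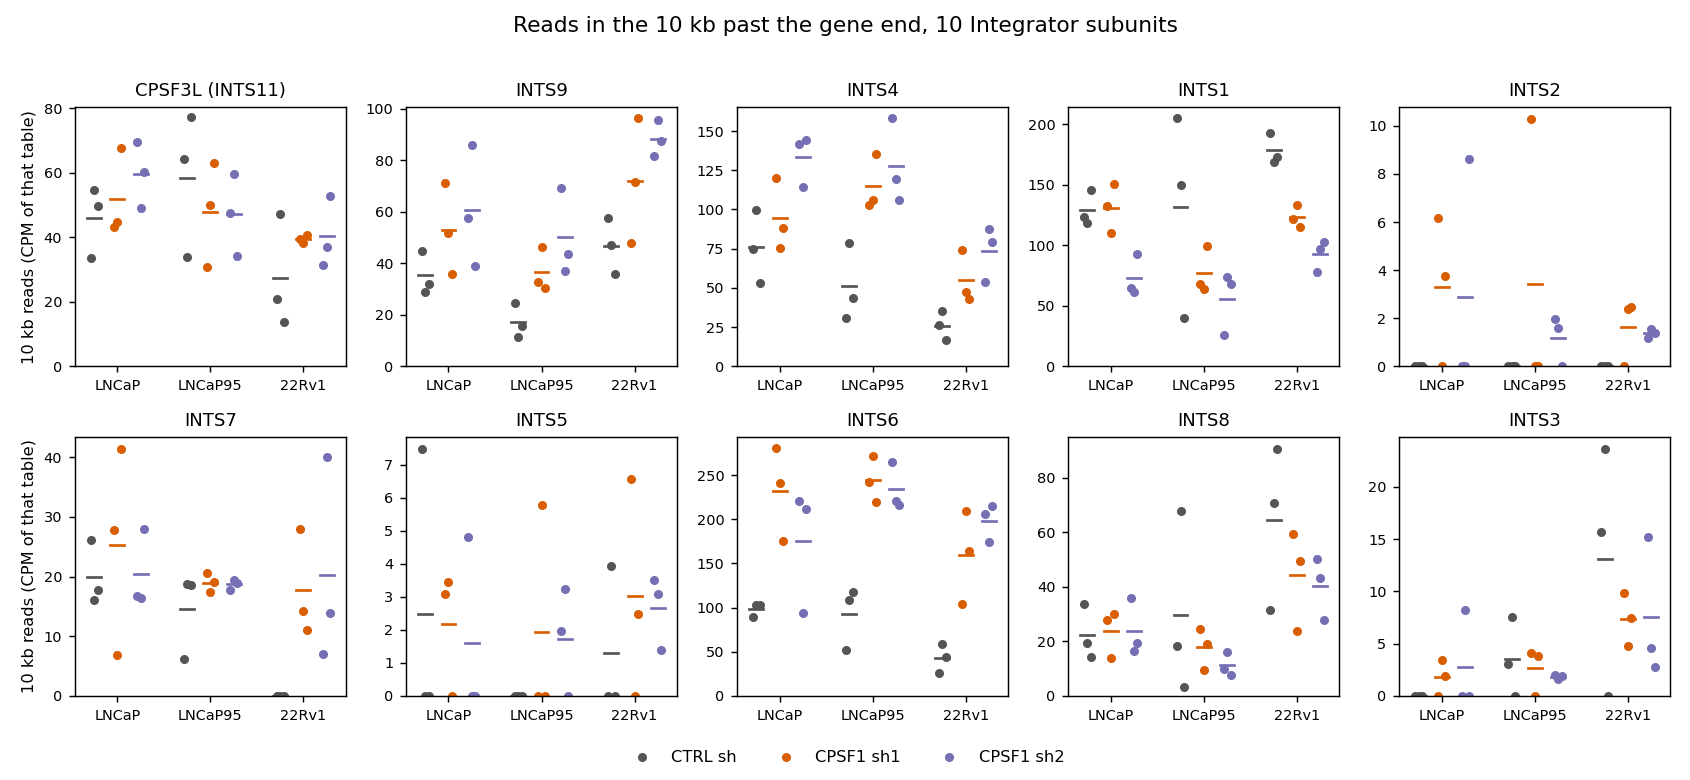
Level in the 10 kb downstream region (CPM of that table, linear axis from 0) of each Integrator subunit in every library, by line and shRNA, with the same colours for CTRL sh, CPSF1 sh1 and CPSF1 sh2. Each dot is 1 library and each line is the mean of 3. INTS6 stands at 26.1 to 59.0 CPM in 22Rv1 controls and 104 to 215 after knockdown.

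INTS5 and INTS8, the other 2 subunits that join the phosphatase module, differed less. INTS8 in LNCaP95 read 43.0, 41.8 and 35.3 CPM in its 3′ UTR in controls and 48.4, 54.0 and 63.4 at the lowest, median and highest after knockdown. The groups did not overlap, and the change was 0.46 (SE 0.14, adjusted p = 0.0189; 0.38 and 0.103 without control replicate 3). With sh1 alone the adjusted p was 0.0504 and with sh2 alone 0.0613. In 22Rv1 INTS8 read 41.4, 54.9 and 58.1 CPM in controls and 60.6 to 76.2 after knockdown, also with no overlap, and this change of 0.32 missed the threshold (adjusted p = 0.333). In LNCaP it was 0.01 (95% interval -0.28 to 0.30). INTS5 read 23.3, 27.1 and 23.4 CPM in LNCaP95 controls and 25.0 to 35.3 after knockdown (0.32, adjusted p = 0.140), 38.5, 37.9 and 41.9 against 32.4 to 59.1 in LNCaP (0.18, adjusted p = 0.513), and 39.5, 38.3 and 36.0 against 37.3 to 50.2 in 22Rv1 (0.26, adjusted p = 0.456). Downstream, INTS8 changed by 0.11, -1.01 and -0.71 in LNCaP, LNCaP95 and 22Rv1 with no call, and INTS5 had at most 2 reads in a control and 4 in a knockdown library.

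INTS3, which is also a subunit of the SOSS single-strand DNA sensor complex, fell in LNCaP. Its 3′ UTR read 48.3, 47.1 and 40.9 CPM in controls and 23.2, 31.7 and 37.2 at the lowest, median and highest after knockdown. No library overlapped, and the change was -0.52 (SE 0.16, adjusted p = 0.0347). The call was lost without any 1 of the controls (adjusted p = 0.131, 0.117 and 0.0605 without replicates 1, 2 and 3), without sh1 replicate 2 (0.0542) or sh1 replicate 3 (0.0655), or without sh2 replicate 3 (0.0556). In LNCaP95 it read 21.6, 33.0 and 31.0 CPM against 26.02 to 56.5 (0.31, adjusted p = 0.309), and in 22Rv1 34.3, 46.5 and 50.9 against 42.6 to 59.5 (0.19, adjusted p = 0.651). Its change in LNCaP95 exceeded that in LNCaP by 0.84, which narrowly missed the threshold (adjusted p = 0.0521). The 10 kb region of INTS3, which holds SLC27A3 on the same strand, had at most 6 reads in a control library and 13 after knockdown.

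With the reads of all 4 tables added per gene, 2 of 10 subunits changed in LNCaP against 27.5% of all genes, 4 of 10 in LNCaP95 against 34.3%, and 0 of 10 in 22Rv1 against 7.57%. Where CDS and 3′ UTR features overlap, as in INTS6, a read may enter this sum from both. INTS3 (-0.47, adjusted p = 0.016; 0.0631 without control replicate 1 and 0.0614 without control replicate 2) and INTS6 (-0.33, adjusted p = 0.0418) fell in LNCaP. The latter call was lost without control replicate 1 (0.129) or control replicate 2 (0.153), and without any of the sh1 libraries or sh2 replicate 3 (0.0524 to 0.0609). In LNCaP95 the 4 were CPSF3L, INTS1, INTS6 and INTS7. INTS6 as a whole stood at 149 to 160 CPM in LNCaP95 controls and 77.2, 80.6 and 84.7 after knockdown (-0.91, adjusted p = 4.2e-06). In 22Rv1 it stood at 73.4 to 81.3 CPM against 71.7 to 80.3, a change of -0.01 (adjusted p = 0.983). DESeq2 gave no call in 22Rv1 either, and 3 subunits had an unadjusted p under 0.05 (CPSF3L, INTS4 and INTS9).

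The share of a gene's own reads that lie downstream does not depend on how the tables are scaled. For INTS6 it was 5.18% to 6.68% in LNCaP controls and 15.03% to 26.6% after knockdown, 1.27% to 2.95% and 16.6% to 24.8% in LNCaP95, and 1.82% to 3.70% and 8.41% to 19.3% in 22Rv1. For INTS4 it was 9.09% to 15.2% and 17.5% to 31.3% in LNCaP, 4.37% to 6.95% and 16.7% to 36.4% in LNCaP95, and 3.19% to 6.82% and 9.26% to 21.0% in 22Rv1. For both genes all 6 knockdown libraries exceeded all 3 controls in every line. The median gene's share rose as well, from 1.70% to 3.25%, 1.57% to 4.52% and 2.096% to 4.09%. The two-sided exact permutation p was 0.0119, the smallest that the 84 arrangements of 3 and 6 libraries allow, for INTS6 in all 3 lines, INTS4 in LNCaP and LNCaP95, INTS9 in LNCaP95 and CPSF3L in 22Rv1, and it was 0.0238 for INTS4 in 22Rv1. Adjusted over the 30 tests of 10 subunits in 3 lines these were 0.0510 and 0.0794, so none of the 30 passed. At the smallest p allowed, 0.0119, no single test could pass this adjustment alone, so it cannot decide on any 1 subunit. The 3′ UTR share of INTS6 was 28.7% ± 1.75 (SD, n = 3) in LNCaP controls and 25.1% ± 4.12 (n = 6) after knockdown, 37.8% ± 3.42 and 24.0% ± 2.40 in LNCaP95, and 33.4% ± 3.03 and 26.4% ± 2.63 in 22Rv1. Its intron share, which includes its canonical end, was 48.4%, 48.6% and 44.3% in controls.

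**Figure D4:**
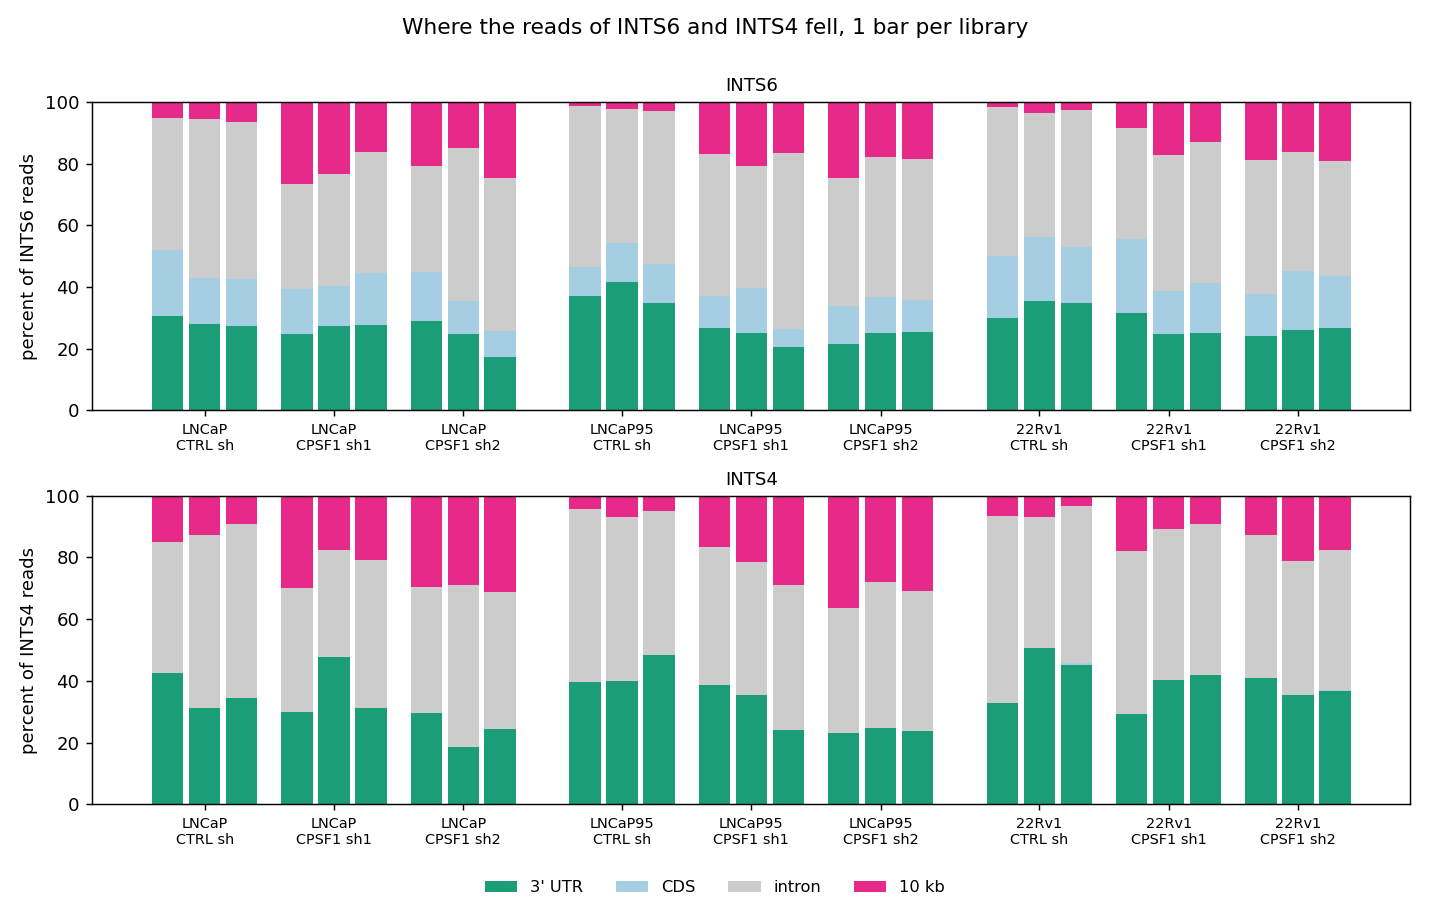
Percent of the reads of INTS6 and of INTS4 that fall in the 3′ UTR, CDS, intron and 10 kb downstream regions, as stacked bars for each of the 27 libraries. The downstream part of INTS6 reaches at most 6.68% in a control library and at least 8.41% in a knockdown library.

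Tested as a ratio of downstream to 3′ UTR counts in one model with a term for each library, INTS6 rose in every line. Its 3′ UTR counts leave out its canonical end. The ratio was 3.04-fold higher in LNCaP (log2 1.60, SE 0.38, adjusted p = 0.0048), 6.98-fold in LNCaP95 (2.80, SE 0.34, adjusted p = 1.8e-07) and 4.48-fold in 22Rv1 (2.16, SE 0.40, adjusted p = 6.6e-04). For INTS4 it was 3.69-fold higher in LNCaP95 (1.88, SE 0.44, adjusted p = 0.0014) and not called in LNCaP (0.90, adjusted p = 0.201) or 22Rv1 (1.05, adjusted p = 0.202). INTS7 was called in 22Rv1, but with 0 downstream reads in its controls it passed the filter only through its knockdown libraries, and its ratio is not read further. The ratio rose for 1 of 7 subunits in LNCaP against 8.39% of all genes, 2 of 8 in LNCaP95 against 21.2%, and 2 of 9 in 22Rv1, INTS6 and INTS7, against 6.65%. CPSF1 rose in this ratio in LNCaP by 2.20 (adjusted p = 0.0151) and was not called in LNCaP95 (0.97, adjusted p = 0.243) or 22Rv1 (1.03, adjusted p = 0.0758). As the shRNA target its 3′ UTR counts fell, by 1.19 in LNCaP. Its downstream change there was not called (0.95, adjusted p = 0.330), from 1 to 6 reads per control library.

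Before knockdown, several subunits differed between LNCaP95 and each of the other lines, as did a large share of all genes. In control 3′ UTRs, 6 of 10 differed between LNCaP95 and LNCaP against 39.3% of all genes, 5 of 10 between 22Rv1 and LNCaP95 against 54.6%, and none between 22Rv1 and LNCaP in edgeR or DESeq2 against 47.2%, where INTS6 and INTS9 had an unadjusted p under 0.05. INTS6 was highest in LNCaP95, by 1.43 over LNCaP (adjusted p = 6.4e-06) and by 1.05 over 22Rv1 (7.4e-05), and its LNCaP and 22Rv1 levels were not shown to differ (adjusted p = 0.0905). CPSF3L was also highest in LNCaP95, 0.67 higher in LNCaP95 than in LNCaP (adjusted p = 0.0357) and 1.19 higher than in 22Rv1 (6.2e-04). The first of these was lost without LNCaP control replicates 2 (0.0953) or 3 (0.139) or LNCaP95 control replicates 1 (0.139) or 3 (0.101). INTS3, INTS5, INTS7 and INTS8 were lower in LNCaP95 than in LNCaP, by 0.68 (adjusted p = 0.0138), 0.69 (0.0047), 0.76 (0.0170) and 0.52 (0.0279). Of these, the calls of INTS3, INTS7 and INTS8 were each lost without 1 of 2 to 4 control libraries, with adjusted p from 0.0510 to 0.107. INTS3 and INTS5 were higher in 22Rv1 than in LNCaP95, by 0.66 (adjusted p = 0.0119) and 0.63 (0.0060), and INTS2 was lower, by 0.89 on the log2 scale (0.0350). The INTS3 call was lost without 22Rv1 control replicate 3 (0.0705) or LNCaP95 control replicate 1 (0.0715), and the INTS2 call without 22Rv1 control replicates 2 (0.0662) or 3 (0.183) or LNCaP95 control replicate 2 (0.216).

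Over all 4 regions the control levels differed for 5 of 10 subunits between LNCaP95 and LNCaP against 43.9% of all genes, for 2 of 10 between 22Rv1 and LNCaP against 53.1%, and for 9 of 10 between 22Rv1 and LNCaP95 against 59.3%. Total INTS6 stood at 68.2 ± 6.91, 154 ± 5.78 and 76.9 ± 4.04 CPM (mean ± SD, n = 3) in LNCaP, LNCaP95 and 22Rv1 controls. Total CPSF3L stood at 119 ± 14.9, 205 ± 36.0 and 84.9 ± 22.1 CPM. Total INTS9 and INTS7 were higher in 22Rv1 than in LNCaP95, by 0.74 (adjusted p = 8.9e-04) and 0.84 (1.1e-04). These comparisons use the same control libraries as the knockdown comparisons above.

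The 9 other Integrator subunits and partners, listed under INTS10, INTS12, ASUN, VWA9, C7orf26, DDX26B, PPP2CA, PPP2R1A and BRAT1, are given by their counts. In 3′ UTRs 1 of 8 tested rose in LNCaP (PPP2CA, the catalytic subunit of PP2A, 0.41, adjusted p = 0.0295), 2 of 9 in LNCaP95 (INTS10, 0.79, adjusted p = 0.0027, and BRAT1, a partner of the INTS9 and CPSF3L pair, 0.64, adjusted p = 0.0069) and none of 9 in 22Rv1, against 8.24%, 15.2% and 0.678% of all genes, and none fell. Their median change was 0.40, 0.29 and 0.07, beside 0.02, 0.01 and -0.01 over all genes. Downstream, 2 of 8 rose in LNCaP, 1 of 9 rose and 2 fell in LNCaP95, and 1 of 9 rose and 1 fell in 22Rv1, against 9.52%, 17.6% and 7.26% of all genes higher and 5.2%, 10.1% and 2.73% lower. INTS12 fell downstream in LNCaP95 (-1.39, adjusted p = 2.7e-05) and 22Rv1 (-0.72, adjusted p = 0.0398), and PPP2R1A, the scaffold of PP2A, rose in LNCaP (1.13, adjusted p = 0.0015) and 22Rv1 (0.78, adjusted p = 0.0090). Of the 3 other SOSS genes, all tested in each line, 1 rose in LNCaP95 3′ UTRs, against 15.2% of all genes. This was INIP (0.60, adjusted p = 0.0066). None was called in 3′ UTRs of LNCaP or 22Rv1, against 18.3% and 1.47% of all genes in either direction. Downstream none was called in any line, against 14.7%, 27.7% and 9.99% in LNCaP, LNCaP95 and 22Rv1. With 3 genes, a count of 0 does not show an absence of change.

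Of 10 genes for snRNA transcription, in 3′ UTRs 1 fell in LNCaP (POU2F1, the octamer-binding factor Oct-1) and 2 rose and 2 fell in LNCaP95, with none called in 22Rv1. Of all genes 10.1% fell in LNCaP, 15.2% rose and 15.2% fell in LNCaP95, and 1.47% were called in either direction in 22Rv1. SNAPC3, a subunit of the snRNA activating complex, fell in LNCaP95 (-1.08, adjusted p = 7.6e-05), as did the elongation factor ELL (-0.72, adjusted p = 0.0142), while SNAPC4 (0.85, adjusted p = 0.0358) and ZC3H8 (0.85, adjusted p = 0.0110) rose. Downstream, 3 of 8 of these genes rose in LNCaP, 2 of 9 rose and 1 fell in LNCaP95, and none of 10 was called in 22Rv1, against 9.52%, 17.6% and 7.26% of all genes higher and 5.2%, 10.1% and 2.73% lower. Their median downstream change, given without a test, was 1.56, 1.49 and 2.00, beside 0.13, 0.22 and 0.19 over all genes. In 22Rv1 none of the genes behind the median of 2.00 was called, so it does not show a rise there. Of the 6 pausing factors that act with Integrator, the NELF subunits and DSIF, none was called in a 3′ UTR in any line. Of all genes 18.3%, 30.5% and 1.47% were called there in either direction in LNCaP, LNCaP95 and 22Rv1. Downstream in LNCaP95, 1 of 5 tested rose (NELFCD, 1.52, adjusted p = 6.7e-04) and 1 fell (SUPT5H, -1.74, adjusted p = 0.0077), against 17.6% and 10.1% of all genes. None of 5 was called downstream in LNCaP or 22Rv1, against 14.7% and 9.99% of all genes in either direction. The median downstream change of these factors, also without a test, was 0.45, 1.52 and 0.94 in LNCaP, LNCaP95 and 22Rv1. With no call in LNCaP or 22Rv1, it does not show a rise in those lines. Among the mRNA-cleavage paralogs, CPSF3, which is related to CPSF3L, and CPSF2, which is related to INTS9, were not called in 3′ UTRs in any line. CPSF2 rose downstream in LNCaP (1.32, adjusted p = 0.0011) and LNCaP95 (1.23, adjusted p = 0.0263), with 0.17 (0.750) in 22Rv1.

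Across the 27 libraries, with each line centred on its own mean, the 45 pairs of subunits had 3′ UTR correlations from -0.74 to 0.80 with a median of -0.015, and 21 were above 0. The highest was INTS1 with CPSF3L (Pearson r = 0.796) and the lowest INTS9 with CPSF3L (-0.737). Among 7406 genes with at least 10 CPM in every line, the 5 most like CPSF3L were APEH (0.941), WDR18 (0.920), TMEM115 (0.907), PICK1 (0.907) and FBXW5 (0.903). These libraries share their knockdown arms and differ in depth, and the values are descriptions without a test.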

How the data were processed

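The authors deposited 4 tables of raw read counts per gene, for 3′ UTRs extended by 300 bases, for coding sequence (CDS), for introns, and for the 10 kb past a gene's end with same-strand exons removed. Per the study's methods and the submitters' processing notes, reads were trimmed of poly(A) with DPAC, aligned with HISAT2 (2.1.0) to GRCh37 and assigned by their 3′-most base and strand with featureCounts (Subread 2.0.3). DPAC, per the study's methods, drops poly(A) sites called beside A-rich genomic sequence. For these region counts the methods name DPAC for the poly(A) trimming, and whether that filter acted on them too is not given in the sources used here. CDS and 3′ UTR features overlap in INTS3, INTS4, INTS6, INTS8, INTS9 and CPSF3L. A read there may be counted in both, and so in the sums and shares over the 4 tables.

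Counts were tested with edgeR 4.0.16 (quasi-likelihood F-test, R 4.3.3) in each line and table, 3 control against 6 knockdown libraries, for genes with a mean above 2 CPM, with TMM factors and Benjamini-Hochberg adjustment over all genes tested. The standard error is the log2 change divided by the square root of F, and 95% intervals are approximate. CPM values were scaled over all 27 libraries of a table, and fold changes come from the fits within a line. Line differences used all 27 libraries, and control levels the 9 control libraries. The scripts were tested on simulated counts. Replicates of a group differed beyond counting noise in every pair, so none was counted as 1 library. The intron and CDS to 3′ UTR ratios were fitted and are not described. Alternatives were DESeq2 1.42.0, other scaling, filters and samples in the fit, each shRNA alone, a block for the replicate number, and leaving out each library. The genes named are the 10 members, CPSF1, the paralogs CPSF3 and CPSF2 of CPSF3L and INTS9, listed Integrator, snRNA transcription and pausing genes, and the 5 genes most like CPSF3L. Listed genes are named mainly where called. The members and lists were chosen with earlier results of these data known. 3′ end sequences were read from GRCh37 with GENCODE transcript ends, and none is printed for INTS8 and INTS9.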

Additional observations from a re-analysis of the deposited data

Results flagged for a closer look

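In 3 of 55 groups of 6 knockdown libraries, 1 library stood apart from the others by Dixon's criterion, which chance gives in about 1 of 20 groups. INTS3 read 56.5 CPM in its 3′ UTR in LNCaP95 CPSF1 sh1 replicate 2 and 26.02 to 36.5 in the other knockdown libraries. INTS6 read 55.5 CPM in its 3′ UTR in 22Rv1 CPSF1 sh1 replicate 1 and 33.4 to 41.2 in the others. INTS2 read 10.3 CPM downstream in LNCaP95 CPSF1 sh1 replicate 1, from 5 reads, and 0 to 1.98 in the others.

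The knockdown changes of INTS6 and INTS7 differed between lines by a direct test. In 3′ UTRs the INTS6 change in LNCaP95 differed from that in LNCaP by -0.85 (log2, adjusted p = 0.0134), and that in 22Rv1 from that in LNCaP95 by 1.26 (adjusted p = 2.9e-04). For INTS7 these differences were 1.01 (adjusted p = 0.0161) and -0.86 (adjusted p = 0.0451). Downstream, the INTS7 change in 22Rv1 differed from that in LNCaP95 by a fitted 5.71 (adjusted p = 0.0356), a size that depends on the prior count because the 22Rv1 controls held 0 reads, and the call was lost in 7 of 30 alternative settings.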

How the results depend on the processing

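No call on a subunit reversed. Of 985 recomputed values of 61 called results, 837 stayed called in the same direction and 148 missed the threshold. INTS6 downstream in LNCaP95 and 22Rv1, INTS6 and INTS7 in LNCaP95 3′ UTRs, and the INTS6 ratio in all 3 lines were called under every setting run. The ratio had fewer settings, as it was rerun only with scaling to summed reads and with each library left out. It was not rerun in DESeq2, with each shRNA alone, with other filters or with the replicate block.

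Counts of called subunits that moved by more than 1.5 times were as follows. With sh1 alone they were 2 downstream in 22Rv1, 3 in LNCaP95 3′ UTRs, 1 over all regions and 1 in introns in LNCaP. With sh2 alone they were 0 downstream and 0 in 3′ UTRs in LNCaP, 1 over all regions in LNCaP and 1 in LNCaP95 introns. Without TMM factors LNCaP gave 2 downstream, 0 in 3′ UTRs and 0 over all regions, 22Rv1 gave 2 over all regions, and the control 3′ UTRs of 22Rv1 and LNCaP differed in 1. Scaled to summed reads LNCaP gave 2 downstream, 0 in 3′ UTRs and 3 in introns, LNCaP95 1 in introns, the ratio in 22Rv1 4, and the downstream line difference of 22Rv1 and LNCaP95 0. In 1 fit of all 27 libraries the control 3′ UTRs of 22Rv1 and LNCaP differed in 1, and in DESeq2 their all-region levels in 1. With the replicate block 1 was called over all regions in LNCaP, 1 in control 3′ UTRs of 22Rv1 against LNCaP, and 1 in the 3′ UTR difference of 22Rv1 and LNCaP95. Libraries with the same number deviated together (r above 0.1) in 3, 4 and 3 of 9 pairs in the 3 lines' 3′ UTRs and in 0 downstream, so the numbers were not taken to pair them. In 22Rv1 the 3 were all 3 pairs of CTRL sh with CPSF1 sh1 (r from 0.191 to 0.571), and a fit of these 2 arms with the replicate block, chosen after seeing the data, gave 0 called subunits in 3′ UTRs, as did the fit without it.

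Leaving out 1 library gave, for LNCaP, LNCaP95 and 22Rv1, 0 to 2, 2 to 6 and 0 calls in 3′ UTRs, 0 to 1, 1 to 2 and 0 in introns, 0, 0 to 1 and 0 in CDS, 1, 2 to 4 and 2 to 4 downstream, 0 to 2, 2 to 4 and 0 over all regions, and 1, 2 to 3 and 1 to 2 in the ratio. For LNCaP95 against LNCaP, 22Rv1 against LNCaP and 22Rv1 against LNCaP95 it gave 0 to 3, 0 and 1 to 3 differences in 3′ UTRs, 0, 0 to 1 and 0 to 1 downstream, and for controls 3 to 7, 0 to 2 and 3 to 8 in 3′ UTRs and 4 to 6, 0 to 3 and 5 to 10 over all regions. The cause of these moves was not tested. Downstream counts of INTS2, INTS3, INTS5 and INTS7 were too low for a fold of useful precision.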
